A study of Mus musculus with 8 samples.

Results

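Tbk1, Ikbke, Tank, Azi2 and Traf3 encode a pair of related protein kinases and the adaptor proteins that hold them. The members were all probe sets that the array annotation assigned to only 1 of these 5 genes, which gave 6 of the 22626 probe sets used. Tbk1 and Azi2 had 2 probe sets each, Ikbke and Tank had 1 each, and no probe set was annotated to Traf3 alone in the table used here. Each probe set is given on its own, and 5 of the 6 reached the floor described below on 1 array or more.

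RNA came from mouse embryonic fibroblasts, mesenchymal cells grown out of embryos, of strain C57BL/6 x 129Ola. Of the 4 genotypes, 1 lacked both kinases (Tbk1-/- Ikbke-/-), 1 lacked Tbk1 alone (Tbk1-/- Ikbke+/+, called Tbk1-/-), 1 lacked Ikbke alone (Tbk1+/+ Ikbke-/-, called Ikbke-/-) and 1 carried both (Tbk1+/+ Ikbke+/+, called WT). Cells of each genotype were transfected with B-DNA, which is poly(dA-dT)-poly(dT-dA), or mock transfected, and were collected after 4 h. Each of the 8 combinations was hybridised to 1 Affymetrix array, so a ratio of 2 arrays has no replicate check and carries no p-value. How many embryos gave the cells, and which part of each gene the deletions remove, is not given in the sources used here.

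Tbk1 and Ikbke phosphorylate the transcription factors Irf3 and Irf7, which then switch on interferon beta and other antiviral genes. Cytosolic DNA reaches Tbk1 through the membrane adaptor Sting1, and cytosolic RNA reaches it through Mavs and the ubiquitin ligase Traf3. Tank and Azi2, the protein also called Nap1, are scaffolds that bind the kinases and bring them to such receptor complexes.

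Signals below are MAS5 signal intensity after each array was scaled to a 2% trimmed mean of 500, and the factors needed lay between 1.96 and 3.58. Values under a floor of 122, the 40th percentile of all scaled values, have no measured order and were set to it before ratios were taken. A probe set was called higher or lower at a 2-fold difference or more when its higher value reached 244. Of the 10 fibroblast markers examined, 9 or 10 reached 244 on every array. Of 14 macrophage and leukocyte markers, 10 did so in the WT cells given B-DNA and 13 in the mock-transfected WT cells, against 1 or 2 on the other 6 arrays. Their summed signal was 5425 and 20415 on these arrays, and lay between 1317 and 1690 elsewhere. Xist, the RNA of the inactive X chromosome, was between 138 and 209 in the Ikbke-/- genotypes and between 2950.1 and 3766 in the Ikbke+/+ genotypes, so Ikbke genotype and embryo sex cannot be told apart.

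The targeted kinase genes were read first. Tbk1 probe set 1460315_s_at read 389.6 on the B-DNA array and 290.0 on the mock array of Tbk1-/- Ikbke-/- cells, and 305 and 226 on those of Tbk1-/- cells. The same arrays of Ikbke-/- cells gave 910.0 and 472, those of WT cells 989 and 501. All 4 arrays of the Tbk1-/- genotypes thus lay below all 4 arrays of the Tbk1+/+ genotypes, a separation shown in this direction by 2.34% of the 16406 probe sets tested. A signal over the floor was left on every Tbk1-/- array. In bulk RNA, fewer cells with a transcript and less of it per cell cannot be told apart. The Tbk1-/- B-DNA array held 30.8% of the WT B-DNA signal and the Tbk1-/- mock array 45.1% of the WT mock signal. For Tbk1-/- Ikbke-/- cells these shares were 39.4% on the B-DNA arrays and 57.9% on the mock arrays, and for Ikbke-/- cells they were 92.0% and 94.2%. Without further scaling, the mock share was 34.2% for Tbk1-/- Ikbke-/- cells and 48.6% for Tbk1-/- cells. On the B-DNA arrays the deposited signals were 124.1 for Tbk1-/- Ikbke-/- cells, 137.6 for Tbk1-/- cells and 354.1 for WT cells. The order of these mutants thus turned with the scaling on both treatments. The probe set name ends in s_at, which in the manufacturer's naming marks probes that may match more than 1 transcript, and whether its probes lie in the deleted part of Tbk1 is not known here.

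Measured over genotypes, the Tbk1 level was 1.19 ± 0.261 (SE) lower on the log2 scale in the Tbk1-/- genotypes than in the Tbk1+/+ genotypes. A level here is the mean of a genotype's B-DNA and mock arrays, so it takes in any difference in response. On the mock arrays alone the log2 difference was -0.925 ± 0.192 (SE). The difference over both treatments did not pass the limma test after Benjamini-Hochberg adjustment (adjusted p = 0.966), which used 4 genotype means. No probe set passed this test (0% of 16406 by limma), 602 had an unadjusted p under 0.05, and 62 passed when the 8 arrays were entered as separate samples, none of them a member. The second Tbk1 probe set, 1422469_at, was over the floor only on the Ikbke-/- B-DNA array (180.6) and the WT B-DNA array (131). It read 47.7 and 63.1 on the B-DNA arrays of the Tbk1-/- Ikbke-/- and Tbk1-/- cells, and between 44.7 and 120.0 on the 4 mock arrays, values that have no measured order.

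The Ikbke probe set 1417813_at lay between 12.8 and 42.2 on all 8 arrays, under the floor throughout. Ikbke encodes the second kinase, also called IKK epsilon. With no array over the floor, in WT cells or elsewhere, the probe set checks neither the Ikbke deletion nor a response of Ikbke to B-DNA.

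**Figure D1:**
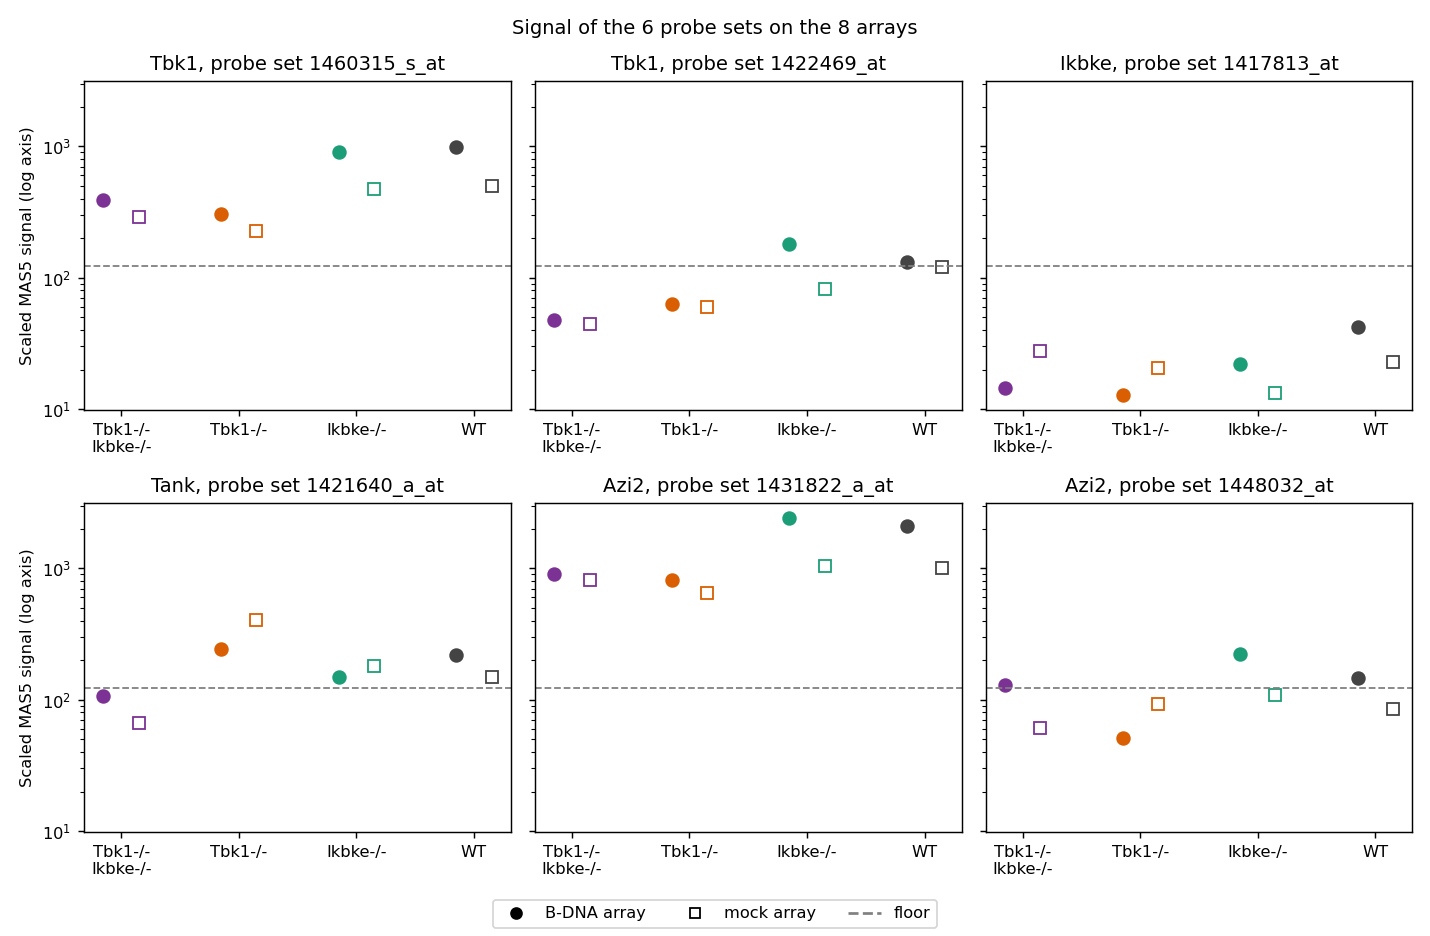
Scaled MAS5 signal (log axis) of each of the 6 probe sets on the 8 arrays, with B-DNA arrays as filled circles, mock arrays as open squares and the floor of 122 as a dashed line. Tbk1 1460315_s_at and Azi2 1431822_a_at stay over the floor on all 8 arrays and are highest on the Ikbke-/- and WT B-DNA arrays, while Ikbke stays at 42.2 or less.

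After B-DNA, Tbk1 1460315_s_at and Azi2 1431822_a_at signals were higher than on the mock arrays in all 4 genotypes. The ratios were larger in the genotypes that carry Tbk1, a difference that did not pass the test given further on. Tbk1 was 1.34-fold higher on the B-DNA array in Tbk1-/- Ikbke-/- cells, 1.35-fold in Tbk1-/- cells, 1.93-fold in Ikbke-/- cells and 1.97-fold in WT cells. On the log2 scale these ratios were 0.43, 0.43, 0.95 and 0.98. In the same order, 10.4%, 6.88%, 3.49% and 3.16% of the tested probe sets had a ratio as high. No ratio of this Tbk1 probe set reached the 2-fold line, and the WT value lay just outside it. For Tbk1 1422469_at, the B-DNA signal was at least 1.48-fold higher in Ikbke-/- cells and at least 1.07-fold in WT cells. It has no ratio in the Tbk1-/- genotypes.

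Azi2 probe set 1431822_a_at, for the scaffold Nap1, read 909 on the B-DNA array and 822 on the mock array in Tbk1-/- Ikbke-/- cells, and 813 and 649.6 in Tbk1-/- cells. In Ikbke-/- cells it read 2417 and 1043, and in WT cells 2094.5 and 1011. The ratios of B-DNA over mock were 1.11-fold in Tbk1-/- Ikbke-/- cells, 1.25-fold in Tbk1-/- cells, 2.32-fold in Ikbke-/- cells and 2.07-fold in WT cells. Of the tested probe sets, 29.9%, 12%, 2.43% and 2.8% in these genotypes had a ratio as high as that of Azi2. Its mock signals differed less between genotypes than its B-DNA signals, and all 4 arrays of the Tbk1-/- genotypes again lay below all 4 of the Tbk1+/+ genotypes.

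Azi2 was the single member called higher after B-DNA in WT cells, where 3.04% of probe sets were called higher, and in Ikbke-/- cells, where 3.22% were. The WT ratio lay just inside the 2-fold line. In Tbk1-/- cells, with 0.311% of probe sets called higher, and in Tbk1-/- Ikbke-/- cells, with 0.652%, no member was called. On the deposited values without further scaling, the Azi2 log2 ratios were 0.98 in Ikbke-/- cells and 0.65 in WT cells, under the line, while the median ratio of all probe sets moved to -0.23 in Ikbke-/- cells and -0.37 in WT cells. With quantile normalization, Tbk1 passed the line in WT cells with a log2 ratio of 1.03. The Ikbke-/- ratios of Tbk1 and Azi2 came from arrays with 1 of 14 macrophage and leukocyte markers at 244 or more, and were 1.93-fold and 2.32-fold, against 1.97-fold and 2.07-fold in WT cells.

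The start regions of Tbk1 and Azi2 are shown because these genes each have a probe set over the floor on all 8 arrays and higher after B-DNA in every genotype. The regions were searched for the cores of interferon and NF-kB sites. The RefSeq span of Azi2 begins at base 118040442 of chr9, so the last part of its window below lies inside that span. The sequences are from RefSeq (GRCm38.p6), and the first pair gives the 250 bases before a start site of each gene, on the strand of the gene, chr10:121586795-121587044 (minus strand) for Tbk1 and chr9:118040272-118040521 (plus strand) for Azi2.
Tbk1 upstream: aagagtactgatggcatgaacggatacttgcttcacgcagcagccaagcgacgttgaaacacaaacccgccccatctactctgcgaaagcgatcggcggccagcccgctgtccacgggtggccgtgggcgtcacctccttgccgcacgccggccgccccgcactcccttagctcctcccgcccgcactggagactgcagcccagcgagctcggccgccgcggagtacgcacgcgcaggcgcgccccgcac
Azi2 upstream: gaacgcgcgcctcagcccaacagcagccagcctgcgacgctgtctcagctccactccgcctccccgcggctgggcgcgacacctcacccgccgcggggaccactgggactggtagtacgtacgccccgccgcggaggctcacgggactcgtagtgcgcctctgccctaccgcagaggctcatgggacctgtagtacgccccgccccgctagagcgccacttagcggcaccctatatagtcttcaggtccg
The interferon-stimulated response element core GAAANNGAA and the NF-kB site core GGGANTTTC, searched on both strands, were in none of the 8 start regions of the 5 genes. A start region here is the 300 bases from 250 before to 50 after a start. Of 32851 such regions of all genes, 8.56% held the GAAANNGAA core and 1.11% the GGGANTTTC core. The Tbk1 region had 69% G and C with 37 CpG sites and the Azi2 region 70% with 36 CpG sites. Ikbke had 54% with 4 CpG sites and Traf3 had 84% with 59. The Tank regions lay between 34.7% with 1 CpG site and 59% with 18. The absence of these letters says only that they are not in these windows.

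The ETS core CCGGAAG was also searched on both strands after the sequences had been seen, and occurred in 8.86% of all start regions. It was in the regions of Tbk1 and Azi2 and in 2 of the 4 Tank regions, and not in those of Ikbke and Traf3. The 2 Tank regions overlap and hold the same site. The 30 bases around it are shown on the strand of each gene, with the core in capitals (CTTCCGG where it lies on the other strand), at chr10:121586745-121586774 (minus strand), chr9:118040512-118040541 (plus strand) and chr2:61593126-61593155 (plus strand).
Tbk1: ccgggctggcgaagCCGGAAGtagcctggg
Azi2: ttcaggtccggCTTCCGGtttcgtcgcgct
Tank: acggaaagctaCTTCCGGttgcagtcattc
A match is a description of the letters and no evidence of binding.

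Averaged over the 4 genotypes, Tbk1 was 0.70 ± 0.14 (SE) higher on the log2 scale after B-DNA, and Azi2 was 0.68 ± 0.216 higher. Neither passed the limma test after Benjamini-Hochberg adjustment over 16406 probe sets (adjusted p = 0.621 for each). No probe set did (0% by limma), 1305 had an unadjusted p under 0.05, and the count stayed at 0 in every alternative run. This fit counts a difference in response between genotypes as spread. For example, Ifih1, called higher only in Ikbke-/- and WT cells, had an average log2 response of 3.19 ± 1.36 (SE), with an adjusted p of 0.621 by limma. The count of 0 thus does not show that a response limited to some genotypes is absent. These values are for Tbk1 1460315_s_at and Azi2 1431822_a_at, which were higher on the B-DNA array in 4 of 4 genotypes. The share of all probe sets with this pattern was not counted. Azi2 1448032_at read 51.2 on the B-DNA array and 92.9 on the mock array of Tbk1-/- cells, both under the floor.

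Whether the response depended on Tbk1 was tested as an interaction of treatment with Tbk1, with the Ikbke interaction in the same fit. The Azi2 response was 0.90 ± 0.243 (SE) smaller on the log2 scale in the Tbk1-/- genotypes than in the Tbk1+/+ genotypes, a log2 difference of -0.90. Its adjusted p was 0.163 by limma with Benjamini-Hochberg adjustment, and lay between 0.084 and 0.48 over the alternatives run. For Tbk1 itself the log2 difference was -0.54 ± 0.233 (SE), with an adjusted p of 0.342 by the same test. No member passed, while 1.51% of the 16406 probe sets passed with a smaller or more negative response in the Tbk1-/- genotypes and 0.134% with a larger one. The remaining tested members had log2 differences of -0.53 (Azi2 1448032_at), -0.50 (Tank) and -0.33 (Tbk1 1422469_at), with adjusted p-values by limma from 0.384 to 0.582. These were fitted on values set to the floor. Tbk1 1422469_at was under it on every array of the Tbk1-/- genotypes, which set those ratios to 0. Azi2 1448032_at was under it on both arrays of Tbk1-/- cells and on every mock array, and Tank on both arrays of Tbk1-/- Ikbke-/- cells. Their differences are thus a description and no support.

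Without further scaling of the deposited values, the difference for Tbk1 was -0.21 and that for Azi2 -0.57, while the median over all probe sets moved to 0.31. Relative to that median the differences were -0.52 for Tbk1 and -0.88 for Azi2, against -0.57 for Tbk1 and -0.94 for Azi2 relative to the median of the scaled arrays.

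The log2 difference in response between the Ikbke-/- and Ikbke+/+ genotypes was -0.01 ± 0.243 (SE) for Azi2 and -0.02 ± 0.233 for Tbk1, with an adjusted p of 0.999 by limma for each, and both turned positive without further scaling (0.26 and 0.25) and with scaling to the median. No probe set passed this test (0% of 16406 by limma), 792 had an unadjusted p under 0.05, and 1 passed with an intensity trend and robust prior, which was not a member.

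**Figure D2:**
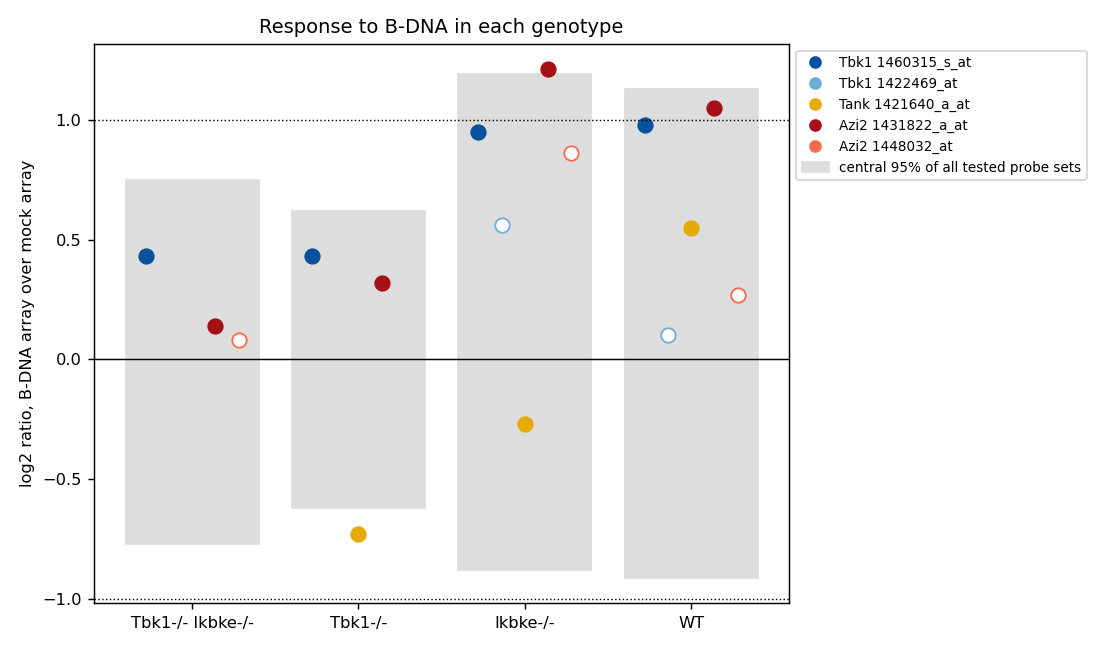
Log2 ratio of the B-DNA array over the mock array in each genotype for the 5 probe sets tested, with the central 95% of all tested probe sets in grey and dotted lines at 2-fold. Open points have 1 array under the floor and are lower bounds, and pairs with both arrays under the floor are left out. Azi2 1431822_a_at is at 1.21 in Ikbke-/- cells and 1.05 in WT cells, and Tank is at -0.73 in Tbk1-/- cells.

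The second Azi2 probe set, 1448032_at, read 129 on the B-DNA array and 60.4 on the mock array of Tbk1-/- Ikbke-/- cells, and 51.2 and 92.9 in Tbk1-/- cells. In Ikbke-/- cells it read 222 and 109.5, and in WT cells 147 and 84.5. It was over the floor on 3 arrays, all of them B-DNA arrays. The B-DNA signal was at least 1.06-fold higher than the mock signal in Tbk1-/- Ikbke-/- cells, at least 1.81-fold in Ikbke-/- cells and at least 1.21-fold in WT cells, and has no ratio in Tbk1-/- cells.

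Tank, the scaffold also known as I-TRAF, had no common direction over the genotypes. Its probe set 1421640_a_at read 106 on the B-DNA array and 66.5 on the mock array of Tbk1-/- Ikbke-/- cells, both under the floor. In Tbk1-/- cells it gave 242 and 401, in Ikbke-/- cells 149 and 179.5, and in WT cells 217.5 and 149. The B-DNA array was thus the lower of the pair in Tbk1-/- cells (log2 ratio -0.73) and Ikbke-/- cells (-0.27) and the higher in WT cells (0.55), and the highest value was that of the Tbk1-/- mock array. The average response, with the ratio of Tbk1-/- Ikbke-/- cells set to 0 by the floor, was -0.11 ± 0.218 (SE) on the log2 scale. Its adjusted p was 0.895 by limma. The average response turned to 0.09 when the Tbk1-/- pair was left out.

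Set against WT cells, both Tbk1-/- genotypes had lower signals of Tbk1 1460315_s_at and Azi2 1431822_a_at on each treatment. On the mock arrays, Tank was called higher in Tbk1-/- cells (2.69-fold, 401 against 149), where 2.27% of probe sets were called higher. In Tbk1-/- Ikbke-/- cells it went the other way, with 66.5, under the floor and at least 1.22-fold below WT cells, and was not called. Tbk1 was called lower in mock-transfected Tbk1-/- cells (2.22-fold, 226 against 501), where 3.34% of probe sets were called lower. Azi2 was 1.56-fold lower there and was not called. On the B-DNA arrays Tbk1 was 3.24-fold lower and Azi2 2.57-fold lower in Tbk1-/- cells, both called, with 5.87% of probe sets called lower. In Tbk1-/- Ikbke-/- cells after B-DNA, Tbk1 was 2.54-fold lower and Azi2 2.31-fold lower than in WT cells, both called, with 6.66% called lower. Ikbke-/- cells differed from WT cells by 1.09-fold or less in Tbk1 1460315_s_at and 1.15-fold or less in Azi2 1431822_a_at on either treatment. On the B-DNA arrays, Tbk1 1422469_at was 1.38-fold and Azi2 1448032_at 1.5-fold higher in Ikbke-/- cells, neither called. The mutants share the WT arrays in these comparisons, and the macrophage and leukocyte markers of those arrays were high, whose part was not tested. Against Ikbke-/- cells, with 1 of 14 of those markers at 244 or more, Tbk1 was 2.34-fold lower and Azi2 2.66-fold lower in Tbk1-/- Ikbke-/- cells after B-DNA, and 1.63-fold and 1.27-fold lower on the mock arrays. Without further scaling these mock differences were 2.76-fold and 2.15-fold, past the 2-fold line, while the median log2 ratio of all probe sets was -0.47.

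Over genotypes, the Azi2 level was 0.94 ± 0.233 (SE) lower on the log2 scale in the Tbk1-/- genotypes than in the Tbk1+/+ genotypes, with an adjusted p of 1 by limma. This level takes in both arrays of a genotype, and so any difference in response. On the mock arrays alone the log2 difference was -0.491 ± 0.148 (SE). The level in the Ikbke-/- genotypes less that in the Ikbke+/+ genotypes was -0.75 ± 0.399 (SE) for Tank, 0.19 ± 0.233 for Azi2 and 0.13 ± 0.261 for Tbk1, each with an adjusted p of 1 by limma. Without further scaling the Azi2 and Tbk1 values were -0.11 and -0.17. For Tank both arrays of Tbk1-/- Ikbke-/- cells were under the floor, so its value rests in part on the floor. It was -1.016 with a floor at the 20th percentile and -0.403 with a floor at the 50th percentile. No probe set passed for Ikbke (0% of 16406 by limma), 429 had an unadjusted p under 0.05, and 1 passed when only probe sets over the floor on all 8 arrays were tested and 56 with the arrays as separate samples, none of them a member.

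The order of the Tbk1 levels, high to low, was the WT B-DNA, Ikbke-/- B-DNA, WT mock, Ikbke-/- mock, Tbk1-/- Ikbke-/- B-DNA, Tbk1-/- B-DNA, Tbk1-/- Ikbke-/- mock and Tbk1-/- mock arrays. With 1 array a group, neighbours in this order cannot be separated by a spread. On the deposited signals, Tbk1-/- cells lay above Tbk1-/- Ikbke-/- cells on each treatment. Azi2 followed nearly the same order, with the places of Ikbke-/- and WT cells exchanged at each treatment and those of the Tbk1-/- B-DNA and Tbk1-/- Ikbke-/- mock arrays exchanged.

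Among 10051 other probe sets over the floor on all 8 arrays with 1 gene symbol, the one whose log2 signal was most like that of Tbk1 was Azi2, with a Pearson r of 0.97 over the 8 arrays. Pfkfb3, an enzyme that controls glycolysis, followed with 0.966, and Loxl3, a lysyl oxidase that crosslinks collagen, with 0.965. Azi2 held the 1st place in the other scalings, with a floor at the 50th percentile and with a pseudocount. It was at rank 2 with a floor at the 20th percentile and at rank 3 without the WT pair (r = 0.977 over 6 arrays). The arrays of a genotype share their cells, and the B-DNA arrays of Ikbke-/- and WT cells stand apart from the other 6, so the r is a description and has no p.

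For Azi2 the likeness to other genes was closer still. Cd47, the surface protein that signals to phagocytes not to engulf the cell, had r = 0.99. Dok1, an adaptor of tyrosine kinase signalling, had 0.985 and the ubiquitin ligase Rnf114 had 0.984, while Tbk1 came at rank 15 with 0.97. Rnf114 read 554 on the B-DNA array and 574 on the mock array in Tbk1-/- Ikbke-/- cells, 454 and 435 in Tbk1-/- cells, 1704 and 641 in Ikbke-/- cells, and 1730.1 and 591 in WT cells. Like Azi2, it was high on the Ikbke-/- and WT B-DNA arrays and lower on the other 6.

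**Figure D3:**
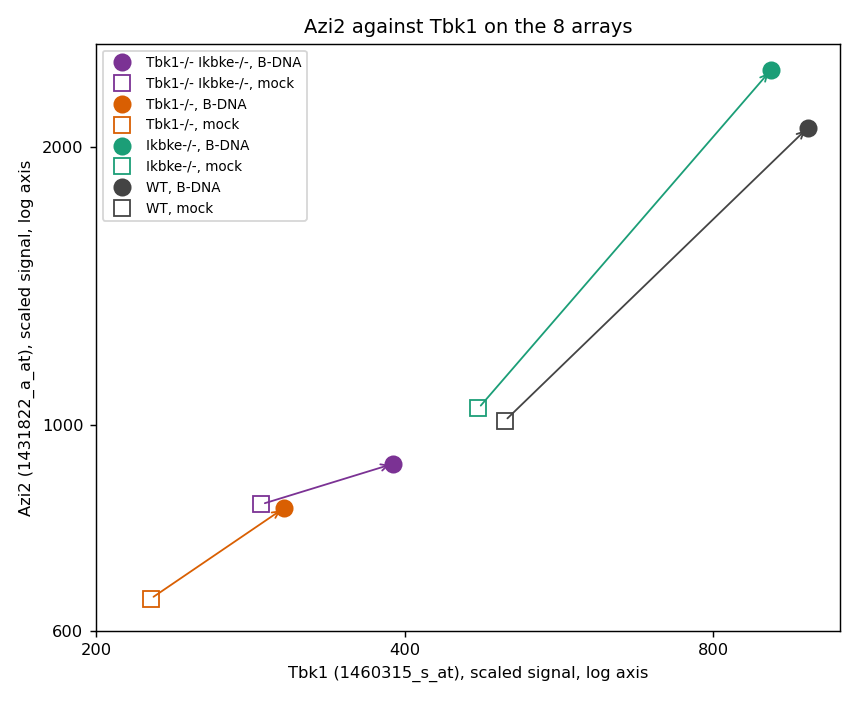
Scaled signal of Azi2 1431822_a_at against that of Tbk1 1460315_s_at on the 8 arrays, both axes logarithmic, with arrows from the mock array (open square) to the B-DNA array (filled circle) of each genotype. The Ikbke-/- and WT pairs lie above and to the right of the Tbk1-/- Ikbke-/- and Tbk1-/- pairs and their arrows are longer, with Azi2 reaching 2417 and 2094.5.

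The genes around the complex were read from 6 lists, each gene by its probe set with the highest mean signal. Of 9626 genes measured, B-DNA arrays were called higher than mock arrays in 0.54% in Tbk1-/- Ikbke-/- cells, 0.291% in Tbk1-/- cells, 3.55% in Ikbke-/- cells and 3.27% in WT cells, with a median log2 ratio of 0.0 in each. Called lower were 0.748% in Tbk1-/- Ikbke-/- cells, 0.405% in Tbk1-/- cells, 1.64% in Ikbke-/- cells and 1.89% in WT cells. The dependence of the response on Tbk1 passed limma's test with Benjamini-Hochberg adjustment in the lower direction in 1.72% of genes. With the Ikbke interaction dropped and any 1 genotype's pair left out, no probe set passed this test, nor did one when all 22626 probe sets were tested, so each call below rests on the fit with all 4 pairs and the filter at the floor.

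Of the other scaffolds 2 of 6 genes were measured, and of the classical IKK complex 2 of 3, with no call among them. Calcoco2 was under the floor on all arrays, and the rest were not annotated. Sqstm1, the autophagy receptor p62, read 6863 on the B-DNA array and 6565 on the mock array in Tbk1-/- Ikbke-/- cells, 12769 and 13575 in Tbk1-/- cells, 7141 and 8183 in Ikbke-/- cells, and 7728 and 9639 in WT cells. Tax1bp1, a further autophagy receptor that Tbk1 can bind, had log2 ratios of -0.05 in Tbk1-/- Ikbke-/- cells, -0.03 in Tbk1-/- cells, 0.12 in Ikbke-/- cells and 0.20 in WT cells. Of the IKK complex, which drives NF-kB, the kinase Ikbkb and the regulatory subunit Ikbkg were measured. Ikbkb ratios lay between -0.25 and 0.41 on the log2 scale and those of Ikbkg between -0.13 and 0.92, the highest in Tbk1-/- cells. In none of these 4 genes did the dependence on Tbk1 pass limma's test (adjusted p from 0.377 to 0.93).

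Among 9 measured TRAF proteins and Traf3 partners, 1 was called higher and 1 lower after B-DNA in WT cells, and 1 higher in Ikbke-/- cells. The higher one in both was Birc2, the ubiquitin ligase cIAP1 that works with Traf2 and Traf3. Birc2 read 872 on the B-DNA array and 780.3 on the mock array in Tbk1-/- Ikbke-/- cells, 385.5 and 314 in Tbk1-/- cells, 773 and 301 in Ikbke-/- cells, and 567 and 225 in WT cells. The log2 ratios in the genotypes with Tbk1 were 1.36 in Ikbke-/- cells and 1.33 in WT cells. The highest values were nonetheless those of Tbk1-/- Ikbke-/- cells on both treatments. The dependence of its response on Tbk1 was -1.12 ± 0.235 (SE) on the log2 scale and did not pass (adjusted p = 0.0947 by limma).

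Traf4 was the gene called lower in WT cells. Its signals on the B-DNA and mock arrays were 396 and 535 in Tbk1-/- Ikbke-/- cells, 245 and 269 in Tbk1-/- cells, 115 and 141 in Ikbke-/- cells, and 130.1 and 289 in WT cells. Traf5 and Traf3ip2, an adaptor of the interleukin 17 receptor, had log2 ratios of 0.83 and 0.40 in Ikbke-/- cells, and 0.25 and 0.75 in WT cells. Neither was called, and no gene of this list passed the test of dependence on Tbk1.

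Of 12 measured sensors and adaptors upstream of the kinases, none was called higher after B-DNA in Tbk1-/- Ikbke-/- or Tbk1-/- cells, 6 were in Ikbke-/- cells and 7 in WT cells, with none lower in any genotype. The median log2 ratio of the list was 0.0 in each of the Tbk1-/- genotypes, 1.31 in Ikbke-/- cells and 1.42 in WT cells. Ifih1, a sensor of double-stranded RNA, read 187 on the B-DNA array and 156 on the mock array in Tbk1-/- Ikbke-/- cells, 139 and 133 in Tbk1-/- cells, 14101 and 128 in Ikbke-/- cells, and 13655 and 273 in WT cells. Tlr3, the endosomal sensor of double-stranded RNA, was over the floor only on the Ikbke-/- and WT B-DNA arrays, at 2427.5 and 2185, with log2 ratios of at least 4.31 and at least 4.16. Zbp1, a Z-DNA binding sensor, was likewise over the floor only there, at 793 in Ikbke-/- cells and 988 in WT cells, and so was Dhx58, the RNA helicase Lgp2, at 586 and 926.5.

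Of these 12 genes, 7 passed the test of dependence on Tbk1. For 4 of the 7 (Zbp1, Dhx58, Tlr3 and, named after its values were seen, Ifi204) all 4 arrays of the Tbk1-/- genotypes were under the floor, which set those ratios to 0, so their pass is a description and no support. The other 3 were over the floor on all 8 arrays and had a smaller response in the Tbk1-/- genotypes. Sting1, chosen after its values were seen because it is the adaptor that brings Tbk1 to cytosolic DNA signalling, was 1 of the 3, with a log2 difference of -1.51 ± 0.243 (SE) and an adjusted p of 0.0393 by limma. Sting1 read 144 on the B-DNA array and 258 on the mock array in Tbk1-/- Ikbke-/- cells, 429.8 and 383 in Tbk1-/- cells, 307 and 172 in Ikbke-/- cells, and 1199 and 422 in WT cells. Its level was lower in the Ikbke-/- genotypes than in the Ikbke+/+ genotypes on each treatment, where embryo sex and Ikbke genotype cannot be told apart. That level difference, -1.35 ± 0.275 (SE) on the log2 scale, did not pass limma's test (adjusted p = 1).

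Downstream of the kinases, 7 of 9 measured genes of the interferon arm were called higher after B-DNA in Ikbke-/- cells and in WT cells, with median log2 ratios over the list of 5.55 and 5.24. In Tbk1-/- cells 1 was called higher and 1 lower, and in Tbk1-/- Ikbke-/- cells none was called. Of the 9 genes, 7 passed the test of dependence on Tbk1, among them Ifit1, Ifit2, Ifit3 and Rsad2. Of these 7, 2 were over the floor on all 8 arrays, neither of them a gene just named, and the floor limits the fitted difference of the rest. Ifit1, Ifit2 and Ifit3 were under the floor on both arrays of Tbk1-/- cells, which set those ratios to 0. Rsad2 was under it there on the B-DNA array (88.6). The pass of these genes is thus a description and no support. Irf3, the substrate itself, also chosen after its values were seen, read 956 on the B-DNA array and 1104 on the mock array in Tbk1-/- Ikbke-/- cells, 1024 and 988 in Tbk1-/- cells, 1068 and 823 in Ikbke-/- cells, and 1024 and 1178 in WT cells. No Irf3 ratio reached the 2-fold line, and its dependence on Tbk1 was -0.16 ± 0.285 (SE) on the log2 scale (adjusted p = 0.846 by limma).

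The list drawn up as brakes on the kinase complex had 12 measured genes, of which 2 were called higher after B-DNA in Ikbke-/- and in WT cells and none in the Tbk1-/- genotypes. These were Usp18, the protease that removes Isg15 and limits interferon receptor signalling, and the deubiquitinase Usp25. Whether either restrains the kinase complex was not tested. Usp18 read 97.3 on the B-DNA array and 74.0 on the mock array in Tbk1-/- Ikbke-/- cells and 79.3 and 83.5 in Tbk1-/- cells, all under the floor. Ikbke-/- cells gave 12217 and 178, WT cells 8266 and 239.5. Usp25 was over the floor on 3 arrays, at 331 on the B-DNA array of Ikbke-/- cells, and at 573 on the B-DNA array and 151 on the mock array of WT cells. Both were under the floor on all 4 arrays of the Tbk1-/- genotypes, so their ratios there were set to 0 and the test of dependence on Tbk1 says nothing beyond the levels given.

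Tnfaip3, the ubiquitin-editing enzyme A20, was not called in any genotype. Its log2 ratios were 0.79 in Tbk1-/- Ikbke-/- cells, 0.18 in Tbk1-/- cells, 0.91 in Ikbke-/- cells and 0.90 in WT cells. Otud5, a deubiquitinase that acts on Traf3, had log2 ratios of 0.02, -0.02, 0.60 and 0.49 in the same genotypes. For neither gene did the dependence on Tbk1 pass limma's test (adjusted p = 0.492 for Tnfaip3 and 0.333 for Otud5).

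**Figure D4:**
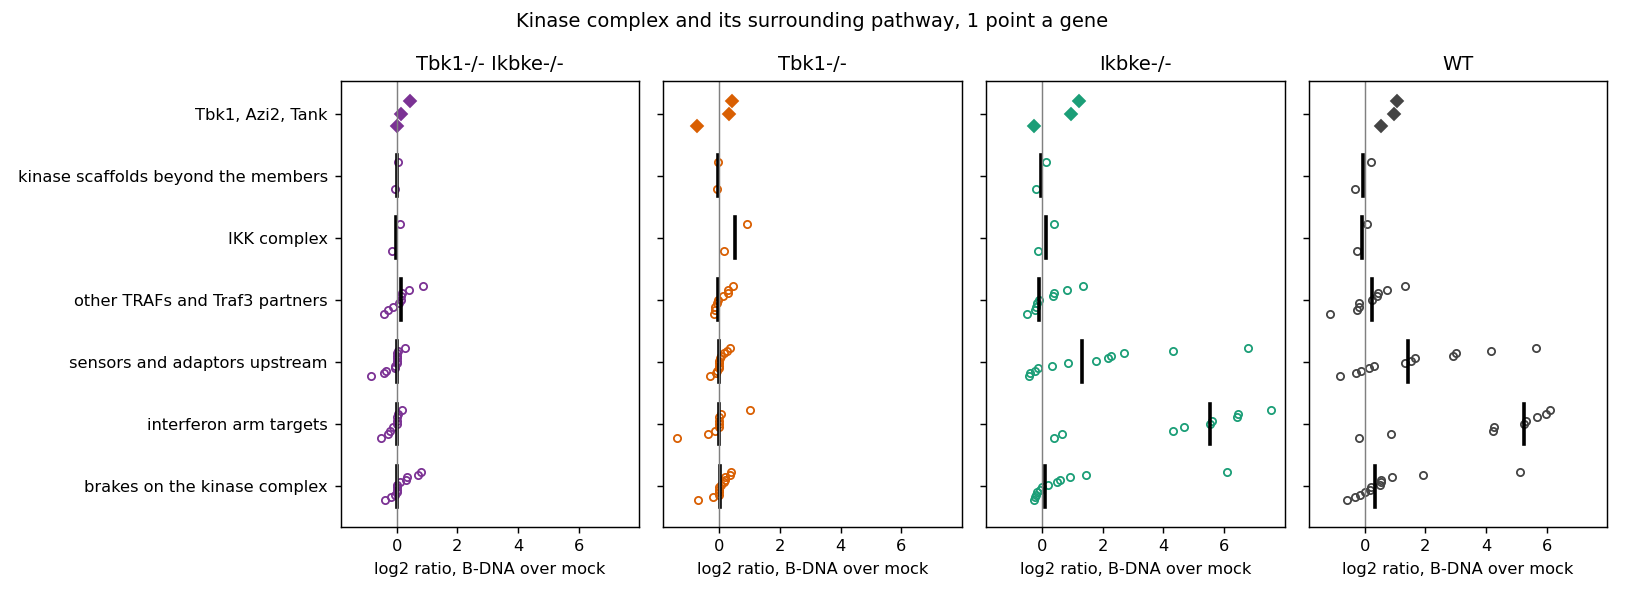
Log2 ratio of the B-DNA array over the mock array in each genotype, with diamonds for Tbk1, Azi2 and Tank, open circles for each gene of the 6 lists, and a black bar at each list's median. Genes under the floor on both arrays are drawn at 0, and genes under it on 1 array at their bound. The interferon arm targets have medians of 5.55 in Ikbke-/- cells and 5.24 in WT cells and of 0.0 in the Tbk1-/- genotypes, and the members stay between -0.73 and 1.21.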

How the data were processed

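The 8 one-colour Affymetrix arrays hold RNA of fibroblasts of 4 genotypes, B-DNA or mock transfected for 4 h, with a single array for every combination. Intensity values were deposited as MAS5 signal, 1 per probe set and not on a log scale; Microarray Suite 5.0 is named per the labels and design text, and GeneSpring without a role. The sources used here do not give a scaling target, detection calls or pooling. Gene symbols came from the annotation that fitted the probe set names, which is that of another array type than the design text gives. After removal of 64 controls from 22690 probe sets, 22626 were used; 20380 carried 1 symbol, 691 several and 1555 none. The GRCm38.p6 RefSeq table held 20351 of the single symbols.

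Array signals, with trimmed means between 139.8 and 255 as deposited, were multiplied to a 2% trimmed mean of 500, raised to the floor (122, the 40th percentile) where lower, and taken to log2. All tests were 2-sided and ran in limma 3.58.1 (R 4.3.3) on 16406 probe sets that reached the floor on at least 1 array, with Benjamini-Hochberg adjustment and a threshold of 0.05. For the average response, genotype was the block (3 residual degrees of freedom). Dependence on either kinase gene was its interaction with treatment in a joint model that kept the genotype block and left 1 residual degree of freedom. Levels were compared over the 4 genotype means. Since no label tells of separate cultures or embryos, the p-values reflect the spread among these arrays alone, which may be technical, and their number limits every precision.

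Members, the 6 pathway lists and the tests were chosen with earlier results of these data known. All member probe sets are named, together with the 4 genes of each list that had the largest mean log2 ratio in either direction over the WT and Ikbke-/- pairs, and the 3 genes most like Tbk1 and Azi2 over the arrays. List genes not annotated here were Tbkbp1, Optn, Calcoco1, Chuk, Traf3ip1, Traf3ip3, Cgas, Rigi, Ticam1, Ticam2, Ripk1, Isg15, Cyld, Dtx4, Rnf216 and Tnip3. Alternatives changed the scaling, the floor, the filter, the prior or the model, or left out a genotype's pair.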

Additional observations from a re-analysis of the deposited data

Results flagged for a closer look

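Of the list genes named by their mean ratio in the WT and Ikbke-/- pairs, 10 differed between the genotypes without and with Tbk1 in their response to B-DNA by the limma interaction test, each with a smaller response in the Tbk1-/- genotypes and an adjusted p under 0.05. Those pairs are part of the contrast tested, so the count is a description and no support. Zbp1, Dhx58, Tlr3, Usp18 and Usp25 were under the floor on all 4 arrays of the Tbk1-/- genotypes. The differences were fitted on values set to the floor, so for genes under it they are neither exact nor a bound. On the log2 scale they were -2.86 for Zbp1, -6.05 for Ifih1, -2.59 for Dhx58 and -4.24 for Tlr3 among the sensors. They were -5.51 for Ifit1, -6.25 for Ifit2, -6.1 for Ifit3 and -6.79 for Rsad2 among the interferon arm targets, and -5.6 for Usp18 and -1.68 for Usp25 in the list of brakes. In each of these genes both Tbk1+/+ genotypes had a higher B-DNA than mock signal. Sting1, chosen after its values were seen, passed the same test. No member of the kinase complex passed.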

How the results depend on the processing

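Of the members' ratios, 308 recomputed values kept their side of the 2-fold line, 20 passed it only under an alternative and 2 no longer passed it. No called ratio turned its sign, and 9 uncalled ones did, none of them over 0.53 in size on the log2 scale. Of the members' fitted differences, 257 kept their direction and 18 reversed, all without passing a test. The cause of a change was not tested unless the setting itself shows it.

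Without further scaling, probe sets called higher after B-DNA numbered 200 in Tbk1-/- Ikbke-/- cells and 278 in WT cells, members called higher 0 in Ikbke-/- cells and 0 in WT cells, and probe sets lower in Tbk1-/- than WT cells after B-DNA 600. With quantile normalization 2 members were called higher in WT cells. With a floor at the 20th percentile, 572 probe sets in Tbk1-/- Ikbke-/- cells, 382 in Tbk1-/- cells, 1012 in Ikbke-/- cells and 1296 in WT cells were called higher, with 1 member in Tbk1-/- Ikbke-/- and 3 in Ikbke-/- cells. Tbk1-/- against WT cells then gave 758 higher and 1228 lower on mock arrays and 2170 lower after B-DNA (4 members), and Tbk1-/- Ikbke-/- against WT cells 2003 lower after B-DNA (4 members). With a floor at the 50th percentile, 66 were higher in Tbk1-/- Ikbke-/- cells and 23 in Tbk1-/- cells.

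Probe sets passing for dependence on Tbk1 numbered 270 in the fit reported, 0 with no filter, 443 with an intensity trend and robust prior, 124 without the Ikbke interaction, 144 without further scaling, 177 with scaling to the median, 60 with a floor at the 20th percentile and 96 with a pseudocount of 16. With the Ikbke interaction dropped and 1 pair left out they ranged from 0 to 0. For dependence on Ikbke, 1 passed with the trend and robust prior. With 8 arrays as separate samples, 62 passed for the level in Tbk1-/- genotypes and 56 for that in Ikbke-/- genotypes, where 1 passed among probe sets over the floor on all arrays.

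Reversed log2 differences were, for Tank, an average response between -0.332 and 0.093 with 1 pair left out (0.093 without the Tbk1-/- pair), 0.055 with the lower floor and 0.032 with the pseudocount, and a dependence on Ikbke of 0.13 without further scaling, 0.29 and 0.27 with the lower and higher floor and 0.25 with the pseudocount. Its level in Tbk1-/- genotypes was -0.085 with the lower floor and -0.049 with the pseudocount. The dependence on Ikbke was 0.26 without further scaling and 0.034 with the median for Azi2 1431822_a_at, and 0.25 without further scaling, 0.002 with quantiles and 0.023 with the median for Tbk1 1460315_s_at. The level in Ikbke-/- genotypes was -0.11 for Azi2 1431822_a_at and -0.17 for Tbk1 1460315_s_at without further scaling, and -0.23 (lower floor) and -0.17 (pseudocount) for Tbk1 1422469_at.

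Azi2 was at rank 2 among genes most like Tbk1 with the lower floor and at rank 3 without the WT pair, settings chosen after seeing the data. The B-DNA and mock arrays of a genotype were paired through the genotype block in the response and dependence fits. Signals under the floor limit 4 of the 6 member probe sets.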
